A study of Sus scrofa with 6 samples.

Results

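The miR-424, miR-503 and miR-542 cluster is a group of microRNAs (miRNAs, short RNAs that guide the repression of messenger RNAs) made from neighbouring hairpins on the X chromosome. Its members were taken by name and not by a rule on their values, although earlier results of these data were known. They are ssc-miR-424-5p, ssc-miR-424-3p, ssc-miR-503 and ssc-miR-542-3p (ssc stands for the pig, Sus scrofa, and is left out from here on), of 326 mature pig miRNAs listed for every library. All 4 were found in the tables, and 3 of them, all but miR-424-3p, had enough reads for a test. The libraries were small RNA libraries of denuded oocytes, that is, oocytes stripped of their cumulus cells, taken from the ovaries of prepubertal gilts collected at an abattoir. Oocytes of large follicles (LO, 3 libraries) were drawn from follicles of 3 to 6 mm and oocytes of small follicles (SO, 3 libraries) from follicles under 2 mm. The gauge of the needle and the volume of the syringe also differed between LO and SO, and their part cannot be told apart from that of follicle size. No treatment or genotype was applied in either group. The series' design calls the libraries biological replicates. The number of gilts or oocytes pooled per library is not stated in the labels, so p-values rest on spread between libraries and not between gilts.

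A miRNA hairpin carries 2 arms, 5p and 3p. Usually one arm is kept in the Argonaute protein as the guide, and the other, the passenger, is lost. The guide finds its targets mainly through its seed, bases 2 to 8 from its 5′ end. The hairpins of this cluster can be transcribed together as one long precursor. miR-424-5p and miR-503 belong to the extended miR-15 and miR-16 family, known for repressing cyclins and other cell cycle genes, and miR-542-3p is known for repressing survivin, a protein of cell division and cell survival. In the ovary the cluster has been studied mainly in granulosa cells, the somatic cells that surround the oocyte.

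The mature sequences below are shown because the seeds set the members apart. They are copied from the deposited tables, which write T for U, from 5′ to 3′ with the seed in capitals.
miR-424-5p: cAGCAGCAattcatgttttgaa
miR-503: tAGCAGCGggaacagtactgcag
miR-542-3p: tGTGACAGattgataactgaaa
miR-424-3p: cAAAACGTgaggcgctgctat
miR-16: tAGCAGCAcgtaaatattggcg
miR-497: cAGCAGCAcactgtggtttgt
miR-542-5p: tCGGGGATcatcatgtcacga
The hexamer AGCAGC at bases 2 to 7 was found in 7 of the 326 names (2.15%). These were miR-424-5p, miR-503, miR-15a, miR-15b, miR-16, miR-195 and miR-497. miR-424-5p has the full seed AGCAGCA in common with 5 names, all in that group (6 of 326 names in all, 1.84%). miR-503 ends its seed in another base, so no other listed name had its seed. No other listed name had the full seed of miR-542-3p or of miR-424-3p. At bases 2 to 7 alone, 1 other listed name matched miR-542-3p and 0 matched miR-424-3p. Behind the seed the relatives diverge: miR-424-5p and miR-503 were identical at 5 of 14 positions after base 8, and miR-424-5p and miR-497 at 6 of 13. Over the first 20 bases the closest listed names differed from miR-424-5p at 5 positions (miR-15a and miR-15b), from miR-503 at 8, from miR-542-3p at 8 and from miR-424-3p at 9. The passenger arms carry the complement of the guides' seeds. GCTGCT, the reverse complement of AGCAGC, was found on the given strand in 1 of 326 names (0.307%), miR-424-3p. TGTCAC, the reverse complement of the first 6 seed bases of miR-542-3p, was found in 2 of 326 names (0.613%), miR-542-5p and miR-181d-3p. In the RefSeq gene table of Sscrofa11.1, MIR542 stood on chromosome X beside MIR450C, MIR450A and MIR450B, between the protein-coding genes HPRT1 and PLAC1. MIR424 and MIR503 were not found there, so their place was not checked.

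Values are reads per 1000000 (RPM) of each library's own total. The mature members are 21 to 23 nt long, so a read covers a whole miRNA and no correction for length was made. Library totals ran from 461505 to 1424130 reads in LO and from 1915218 to 2187987 in SO, of which the 326 listed miRNAs took 7755 to 42541 reads in LO and 44964 to 55230 in SO. The listed miRNAs were 1.68% to 3.03% of the total in LO and 2.33% to 2.88% in SO. What the rest of the total counts is not stated, and RPM depends on it too. One read was worth 0.702 to 2.17 RPM in LO and 0.457 to 0.522 RPM in SO. Intervals given with single libraries are 95% exact intervals (Poisson for RPM, Clopper-Pearson for shares) and cover counting error only, since reads were not known to be separate molecules. The marker miRNAs of 7 other cell types, 29 listed names, took 2.60% to 4.44% of listed miRNA reads in LO and 2.02% to 3.22% in SO. No marker list for the oocyte itself was fixed, so the tissue label was checked only through these other cells. The 4 members together had 236 reads over the 6 libraries, 68 in LO and 168 in SO. The tested members were low among the tested miRNAs, which had passed a filter on reads. By mean RPM over the 6 libraries, miR-503, miR-424-5p and miR-542-3p ranked 88, 93 and 100 among the 104 tested miRNAs. The median level of those 104 was 34.3 RPM. Among all 326 listed names the same members ranked 88, 94 and 101.

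miR-503 was the most abundant member by mean level. LO replicates 1 to 3 had 6.95, 6.50 and 14.7 RPM and SO replicates 1 to 3 had 13.6, 12.0 and 13.7 RPM, from 4, 3 and 21 reads and from 26, 23 and 30 reads. The 3 SO libraries lay close together, and in LO replicate 3 was above every SO library while replicates 1 and 2 were below every SO library, so the groups overlapped. LO averaged 9.40 ± 4.64 RPM and SO 13.1 ± 0.959 RPM (SD over 3 libraries each). The log2 fold change of LO against SO was -0.52 (SE 0.693, 95% interval -1.89 to 0.84; limma FDR 0.780). Each SE here is that of the fit across 104 miRNAs, which takes the spread from miRNAs of like abundance and not from the miRNA itself. The limma intervals and p-values therefore do not measure the spread of that one miRNA between libraries.

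miR-424-5p, the arm with the seed of miR-16, had 8.68, 4.33 and 10.5 RPM in LO replicates 1 to 3 (5, 2 and 15 reads). In SO replicates 1 to 3 it had 15.1, 9.38 and 5.03 RPM (29, 18 and 11 reads). The highest and the second lowest value were both SO libraries, and the LO values lay between or below them. The SO libraries differed among themselves by more than counting error, with intervals of 10.1 to 21.7 RPM in replicate 1 and 2.51 to 9.00 RPM in replicate 3. LO averaged 7.85 ± 3.18 RPM and SO 9.85 ± 5.07 RPM (SD over 3 libraries each), a log2 fold change of -0.25 (SE 0.730, 95% interval -1.69 to 1.18; limma FDR 0.898). The sign turned to 0.07 without LO replicate 2 and to 0.09 without SO replicate 1. SO replicate 1 also stood apart in white blood cell miRNAs: the 3 listed names, miR-142-3p, miR-142-5p and miR-150, took 0.194% of its listed reads and 0.00667% to 0.0387% in the other 5 libraries, the LO range being 0.00940% to 0.0387%. miR-223, the other name of that list, was not analysed here. The part of those cells in the miR-424-5p value was not tested.

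miR-542-3p had 3.47, 8.67 and 8.43 RPM in LO replicates 1 to 3, from 2, 4 and 12 reads. In SO replicates 1 to 3 it had 7.31, 4.69 and 2.74 RPM, from 14, 9 and 6 reads. The groups overlapped, with LO replicates 2 and 3 highest and SO replicate 3 lowest. LO averaged 6.86 ± 2.93 RPM and SO 4.91 ± 2.29 RPM (SD over 3 libraries each), a log2 fold change of 0.40 (SE 0.790, 95% interval -1.15 to 1.95; limma FDR 0.860). The intervals of all 3 tested members reach beyond a doubling or a halving in at least one direction. Changes of that size in those directions are therefore not excluded at this depth and number of libraries.

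miR-424-3p, the passenger arm, was read 2 times in SO replicate 1 (1.04 RPM) and 0 times in the other 5 libraries. A count of 0 allows up to 1.22 RPM over the 3 LO libraries together, taking 3 reads as the limit, and up to 6.50 RPM in LO replicate 2 alone. No fold between the groups is given for it, since both are at or under that limit.

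**Figure D1:**
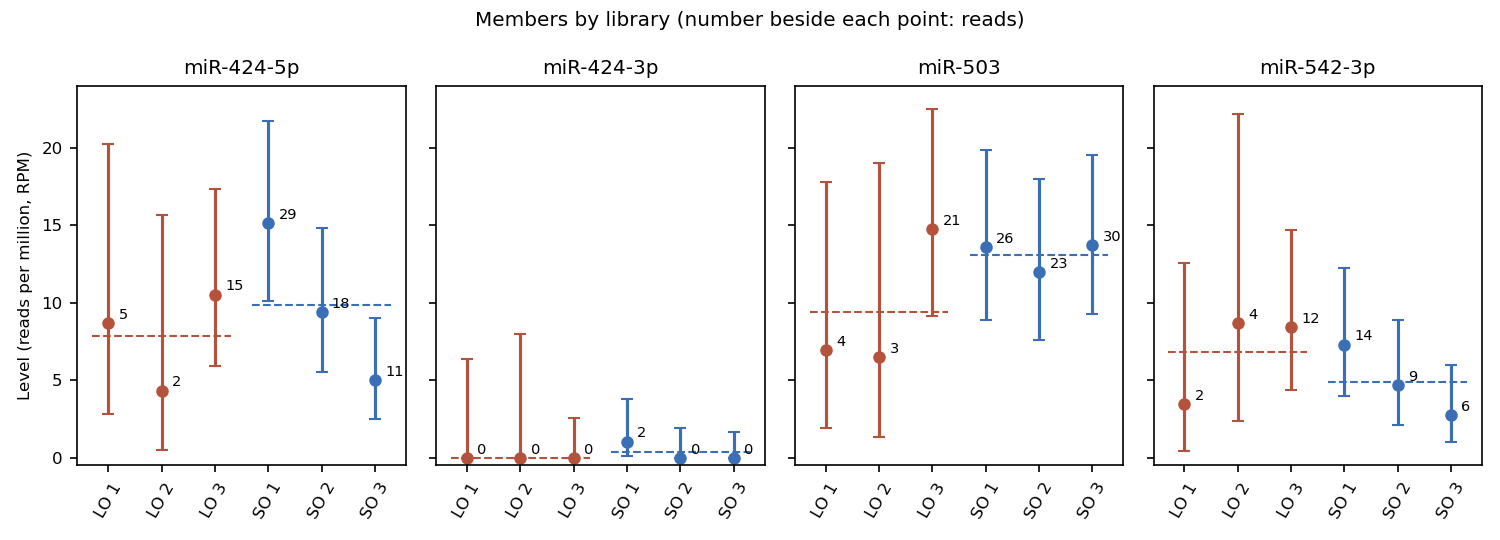
Level of each member in RPM (vertical axis) in the 3 LO and 3 SO libraries (horizontal axis); bars are 95% exact Poisson intervals, dashed lines are group means and the numbers beside the points are reads. The LO intervals are wide because they rest on 2 to 21 reads where a member was found, and LO and SO values overlap for miR-424-5p, miR-503 and miR-542-3p.

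None of the 3 tested members passed 0.05 in limma's adjusted p (FDR, false discovery rate), and neither did any of the 104 tested miRNAs (0, or 0%), and none had an unadjusted p under 0.05, where 4 of 104 did (3.85%). edgeR on the recovered reads called 2 miRNAs with TMM scaling and DESeq2 called 0, with no member among them, and no member had an unadjusted p under 0.05 in either. None of the tested members had LO and SO ranges apart, against 4 of 104 tested miRNAs (3.85%). miR-503 and miR-424-5p had lower means in LO, as did 32 of the 104 tested miRNAs (30.8%). The median log2 fold change of the 3 tested members was -0.25, beside 0.29 for all 104.

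A change of scaling shifts all miRNAs in much the same way, so the members were also read against that median, which was 0.29 on the deposited scaling and 0.05 with TMM. Against it, miR-503 stood at -0.81 on the deposited scaling and at -0.81 with TMM, miR-424-5p at -0.55 and -0.54, and miR-542-3p at 0.11 and 0.20. miR-503 was below zero in 16 of 16 alternative settings, lowest at -0.87 (LO replicate 3 left out) and highest at -0.33 (LO replicate 2 left out). It was also below the median of all tested miRNAs in each of them, by 0.31 to 1.03 on the log2 scale. miR-424-5p was below that median in 15 of 15 alternative settings, by 0.29 to 0.75. miR-542-3p ran from 0.41 below it to 0.83 above it. The settings share libraries and are not separate evidence.

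**Figure D2:**
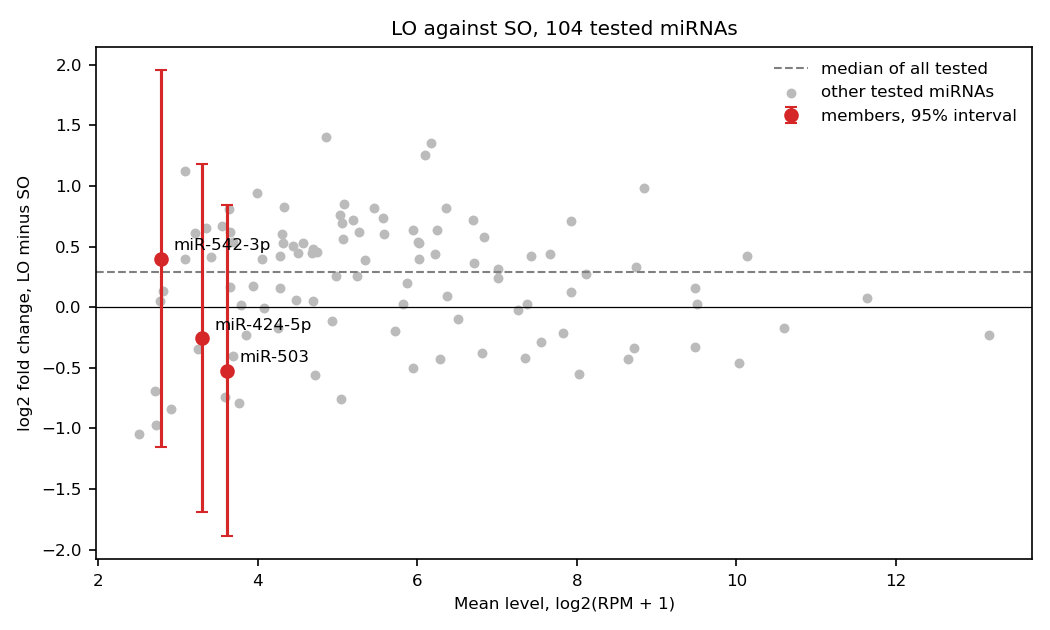
Log2 fold change of LO against SO (vertical axis) against mean level in log2(RPM + 1) (horizontal axis) for the 104 tested miRNAs; red points are the 3 tested members with 95% intervals and the dashed line is the median of 0.29. The members sit at the low end of the levels, with intervals that cross zero.

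**Figure D3:**
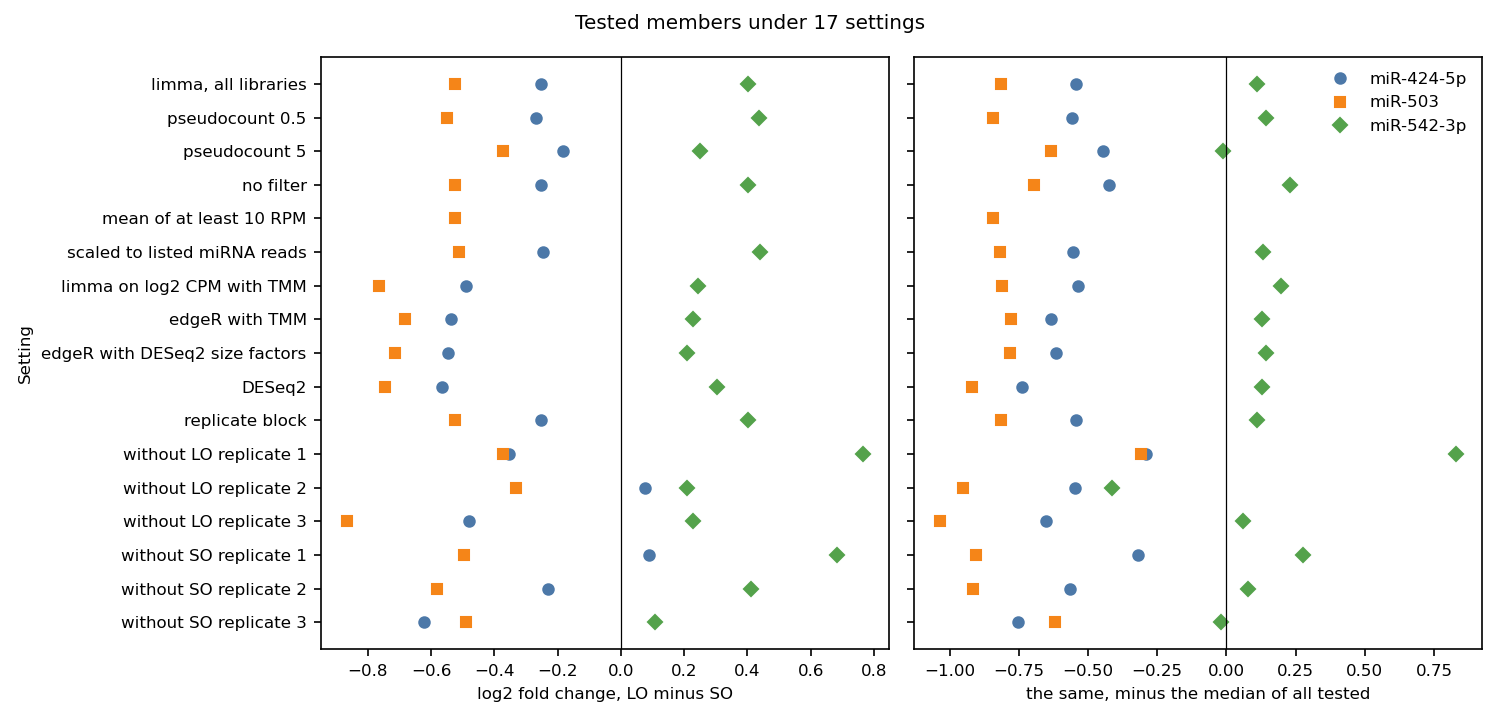
Log2 fold change of LO against SO (left) and the same minus the median of all tested miRNAs (right) for the 3 tested members in 17 settings, one per row, the first being limma with all libraries. miR-503 stays left of zero in every row in which it was tested, and miR-424-5p crosses zero in 2 rows on the left and in none on the right.

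Ratios inside a library do not depend on its scaling, so the members were next compared with one another by log2 of the ratio of reads, with 0.5 added to each. miR-503 had more reads than miR-424-5p in 4 of 6 libraries, all but LO replicate 1 and SO replicate 1, with a mean log2 ratio of 0.38 ± 0.60 (SD, n = 6; exact sign-flip permutation p = 0.156, adjusted over 4 ratios 0.156). The log2 ratio averaged 0.22 ± 0.44 in LO and 0.53 ± 0.80 in SO (exact two-sided permutation p = 0.7, adjusted 0.7). Their order was thus not settled beyond the spread between libraries. SO replicate 3 was farthest from equal, with 30 reads of miR-503 and 11 of miR-424-5p.

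miR-542-3p had fewer reads than miR-424-5p in 5 of 6 libraries, with a mean log2 ratio of -0.57 ± 0.75 (SD, n = 6; exact sign-flip permutation p = 0.125, adjusted 0.156). In LO replicate 2 the order was the other way, on 4 against 2 reads. The ratio lay at -1.02, -0.96 and -0.82 in the 3 SO libraries, an SD of 0.10, and at -1.14, 0.85 and -0.31 in LO. The closeness of the SO values is tighter than these reads can show: the share of miR-542-3p in the reads of the pair had 95% exact Clopper-Pearson intervals of 19.1% to 48.5% in SO replicate 1 and 14.2% to 61.7% in SO replicate 3. The difference between LO and SO was 0.74 (exact two-sided permutation p = 0.4, adjusted 0.533), and it was 1.21 without LO replicate 1 and 0.21 without LO replicate 2.

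Against miR-503, miR-542-3p was lower in 5 of 6 libraries, with a mean log2 ratio of -0.95 ± 0.84 (SD, n = 6; exact sign-flip permutation p = 0.0625, adjusted 0.125). The ratio was -0.85, 0.36 and -0.78 in LO and -0.87, -1.31 and -2.23 in SO. LO replicate 1 and SO replicate 1 were nearly equal, and which of them was higher depended on the reads added: with none added, LO replicate 1 (2 reads of miR-542-3p against 4 of miR-503) fell below SO replicate 1 (14 against 26, a log2 ratio of -0.89), so the groups overlapped. The difference between LO and SO was 1.05 (exact two-sided permutation p = 0.1, adjusted over the 4 ratios 0.4). With no reads added, a setting chosen after the data were seen, it was 1.06 (exact two-sided permutation p = 0.2). For 3 against 3 libraries 0.1 is the smallest p that this permutation can give, for each of the 4 ratios. These group tests could therefore not pass the threshold used for the miRNAs, and they do not decide whether the ratios differ between LO and SO. As shares of the reads of the pair, miR-542-3p held 39.1% in the summed LO reads (95% exact Clopper-Pearson interval 25.1 to 54.6) and 26.9% in the summed SO reads (18.8 to 36.2), and these intervals overlap.

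**Figure D4:**
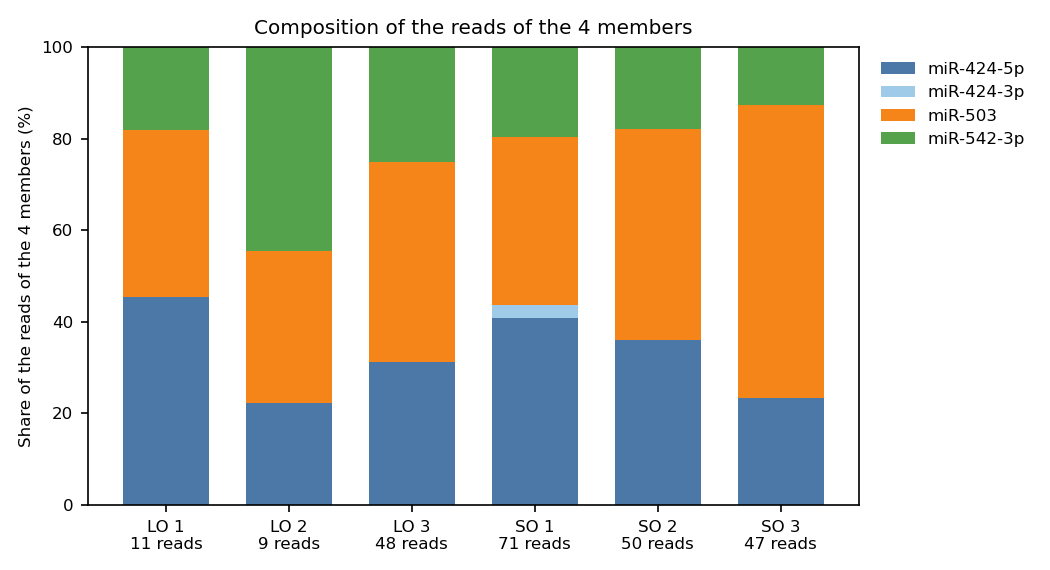
Share of the reads of the 4 members held by each (vertical axis, percent) in the 6 libraries (horizontal axis, with the member reads of each library). miR-542-3p ranges from 12.8% in SO replicate 3 to 44.4% in LO replicate 2, where the 4 members had only 9 reads.

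By share of member reads, miR-503 held 37.8% ± 5.36 of LO and 48.8% ± 13.8 of SO (SD over 3 libraries each). miR-424-5p held 33.0% ± 11.7 and 33.4% ± 9.00, and miR-542-3p 29.2% ± 13.6 and 16.8% ± 3.62. These shares add up within a library, so a rise of one is a fall of others. The 4 members summed to 19.1, 19.5 and 33.7 RPM over LO replicates 1 to 3. In SO the sums were 37.1, 26.1 and 21.5 RPM, with means of 24.1 ± 8.32 and 28.2 ± 8.01 RPM. The sums overlapped between the groups. As a share of listed miRNA reads they took 0.0630% in LO replicate 1 and 0.0923% to 0.129% in the other 5 libraries. LO replicate 1 had the largest share of granulosa and cumulus marker miRNAs, 3.82%, against 1.68% to 2.56% elsewhere, and it had the smallest share of the 4 members; the part of those cells in the members' levels was not tested. The share of that marker list ranged from 1.93% to 3.82% in LO and from 1.68% to 2.55% in SO. All 8 of its names had a read in some library, but the share rests on the leading ones, miR-21, miR-31 and miR-202-5p. miR-132 had 0 to 3 reads per library, and the names below it had at most 1 in any library.

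The arms of miR-424 were far from balanced. The 5p arm had 80 reads and the 3p arm 2, a ratio of 40.0 with a counting interval of 10.7 to 336, and the 5p arm was ahead in 6 of 6 libraries (exact sign-flip permutation p = 0.0312, the smallest that 6 libraries can give, adjusted 0.125). In LO alone, where the 3p arm had 0 reads, the reads of the 5p arm were 7.33-fold the limit of 3 reads over the group. The counting interval of the ratio in LO began at 5.48. The log2 ratio of the arms differed between LO and SO by -0.85 (exact two-sided permutation p = 0.4, adjusted 0.533). With the 3p arm at 0 reads in 5 libraries that value follows the reads of the 5p arm and thus the depth. Of 77 precursors with both arms listed, 31 had a mean of at least 10 reads over both arms, and among these miR-424 ranked 9 by its 5p share of 97.6%. Its lesser arm took 2.44% of reads, beside a median of 3.14% for the 31.

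miR-542 was balanced towards its other arm, with 47 reads of miR-542-3p and 4 of miR-542-5p, a 5p share of 7.84% (95% exact Clopper-Pearson interval 2.18 to 18.9), though its mean of 8.50 reads was under the limit for ranking. In both hairpins the scarce arm holds the reverse complement of the other arm's first 6 seed bases. Only complements of the seeds of the arms with more reads were looked for. The match is thus no result about which arm is kept. No 3p name of miR-503 was analysed here.

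Besides miR-542-5p, the miRNAs beside MIR542 on the X chromosome were nearly all at the edge of detection, and none of the 6 names listed for the rest of the cluster had enough reads to test. miR-450b-5p was the exception in level, with reads in 6 of 6 libraries. The LO libraries had 5.21, 2.17 and 8.43 RPM and the SO libraries 5.22, 2.61 and 2.74 RPM (3, 1 and 12 reads and 10, 5 and 6 reads), and the groups overlapped. Its mean over all libraries, 4.40 RPM, was next below that of miR-542-3p, 5.88 RPM, within the cluster. Its 3p arm had 0 reads in every library. miR-450a, miR-450c-5p and miR-450c-3p had 2 reads each. miR-450a and miR-450c-5p are identical over their first 20 bases, so their reads could be exchanged. miR-542-5p had 0 reads in LO and 2, 1 and 1 in SO, within the limit of 1.22 RPM that 0 reads allow over the LO libraries. With these 6 names the cluster came to 283 reads, of which the 4 members held 236.

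miR-424-5p and miR-503 are a small part of the miRNAs with their seed hexamer. In LO miR-16 averaged 3306 ± 970 RPM and held 95.6% ± 1.59 of the reads of the 7 names, and in SO the values were 3066 ± 589 RPM and 96.5% ± 0.671 (SD over 3 libraries each). miR-195 and miR-497, which lie side by side in a cluster of their own, came next. miR-195 stood at 76.9 ± 48.3 RPM for LO and 50.9 ± 13.6 for SO, and miR-497 at 46.8 ± 31.5 and 24.6 ± 10.5 RPM. miR-15b averaged 17.7 ± 14.6 and 11.0 ± 4.43 RPM, and miR-15a 4.24 ± 0.726 and 3.20 ± 2.23 RPM. Of these 5 relatives 4 were tested, with 0 past an FDR of 0.05 by limma and 0 with an unadjusted p under 0.05. On the scaling as deposited all 4 had the higher mean in LO, with a median log2 fold change of 0.29, beside 0.29 for all 104 tested miRNAs.

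Together miR-424-5p and miR-503 held 0.365%, 0.478% and 0.656% of the reads of the 7 names in the LO libraries (replicates 1 to 3). In the SO libraries the shares were 0.740%, 0.734% and 0.683%. Every LO value was below every SO value. The closest were LO replicate 3, with a 95% exact Clopper-Pearson interval of 0.460 to 0.907, and SO replicate 3, with 0.491 to 0.925, so the gap between them is within counting error. As a value summed over members it was not tested. The share was not planned, and miR-16 made up most of the reads of the 7 names. Taken singly in RPM, 4 of the 104 tested miRNAs had LO and SO ranges apart (3.85%). Neither miR-424-5p nor miR-503 alone kept the groups apart in its share. miR-424-5p took 0.203%, 0.191% and 0.273% in LO and 0.390%, 0.322% and 0.183% in SO. miR-503 took 0.162%, 0.287% and 0.382% in LO and 0.350%, 0.412% and 0.50% in SO, with LO replicate 3 above SO replicate 1.

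**Figure D5:**
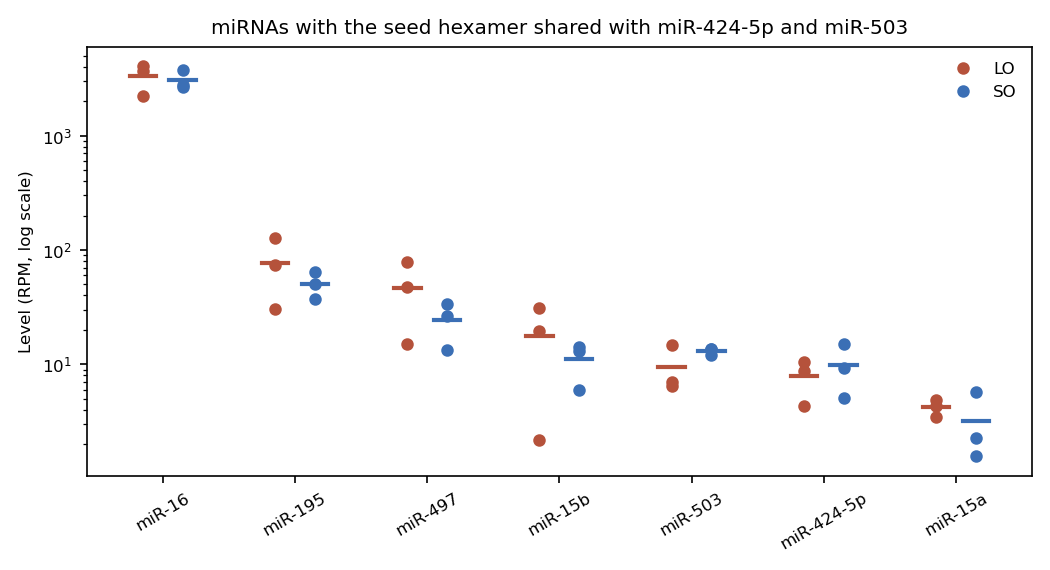
Level in RPM on a log axis (vertical) of the 7 miRNAs with AGCAGC at bases 2 to 7 (horizontal axis, ordered by mean); points are libraries and bars are group means. miR-16 lies between 2204 and 4029 RPM, and miR-503 and miR-424-5p lie between 4.33 and 15.1 RPM.

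To see whether the members followed each other across libraries, the 6 pairs of members were correlated over the 6 libraries on log2(RPM + 1). No pair passed an exact permutation p of 0.05. miR-424-5p and miR-503 gave a Pearson r of 0.480 (permutation p = 0.301, adjusted over 6 pairs 0.904) and a Spearman rho of 0.543 (permutation p = 0.297, adjusted 1). Without LO replicate 2 and SO replicate 1, the libraries farthest from the median of miR-424-5p, r was -0.133. It was 0.0936 without LO replicate 2 alone, 0.376 without SO replicate 1 alone and 0.791 without SO replicate 3, and it was 0.126 when scaled to listed miRNA reads, so the value depends on single libraries and on the scaling. miR-424-5p and miR-542-3p gave r = 0.243 (permutation p = 0.607, adjusted 0.968) and rho = 0.0857 (permutation p = 0.919, adjusted 1), with r = 0.806 without the same libraries. miR-503 and miR-542-3p gave r = -0.0115 (permutation p = 0.968, adjusted 0.968) and rho = -0.200 (permutation p = 0.714, adjusted 1), and r = 0.385 without LO replicates 1 and 2. The remaining 3 pairs involve miR-424-3p, which had reads in 1 library, and the permutation p of their Pearson r ran from 0.167 to 0.833. With each group centred on its own mean, an alternative chosen after the data were seen, the pooled within-group r of the 3 tested pairs was 0.437 for miR-424-5p and miR-503, 0.367 for miR-424-5p and miR-542-3p and 0.290 for miR-503 and miR-542-3p. Permuting libraries within groups gave exact p-values of 0.5, 0.556 and 0.889 (adjusted over 3 pairs 0.833, 0.833 and 0.889).

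The tested miRNAs most like each member over the 6 libraries were found by the same r among the other 103. For miR-424-5p they were miR-30b-5p (r = 0.947), miR-190a (0.896) and miR-335 (0.889). For miR-503 they were miR-182 (0.970), miR-7 (0.964) and miR-183 (0.949), and for miR-542-3p miR-30a-3p (0.924), miR-138 (0.892) and miR-340 (0.748). No other member was among them: miR-503 stood 63 of 103 in likeness to miR-424-5p, and miR-542-3p stood 90. Taken the other way, miR-424-5p stood 27 in likeness to miR-503 and 15 in likeness to miR-542-3p. In likeness to miR-503, miR-542-3p stood 55, and in likeness to miR-542-3p, miR-503 stood 40. The r values named above are the highest of 103 values over 6 libraries that share the scaling and the depth gap between groups. They are given as a description.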

How the data were processed

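Small RNA was sequenced in 3 LO and 3 SO oocyte libraries, each grouped by its title. The QIAseq miRNA Library Kit was used to build them, per the labels' protocols. Each deposited table lists 326 names with 1 value, which the file headers call TPM. The values were whole multiples of 1 step per library, whatever the sequence length, so the deposited values are RPM, scaled by the authors to a total above the listed reads. Every value above 0 (100%) came out as whole reads after division by that step (tolerance 0.01 read). Per the submitters' processing notes, Bowtie2 2.2.2, cutadapt, bcl2fastq, edgeR and the build Sscrofa10.2 were used, in roles not stated there. Use of the kit's molecular identifiers is likewise not stated.

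Groups were compared on log2(RPM + 1) by limma 3.58.1 with its trend option (R 4.3.3), with Benjamini-Hochberg adjustment over the 104 miRNAs that passed edgeR's filterByExpr on recovered reads. The scale understates changes of low miRNAs. edgeR 4.0.16 (quasi-likelihood) and DESeq2 1.42.0 on recovered reads were alternatives, the latter on the 242 miRNAs with a read. The fit was tested on simulated data with changes larger than those measured for the members. That test does not cover changes of the members' size. Single ratios used exact permutation; the sign-flip test of one member against another, ratios with no reads added and correlations within groups were added after the data were seen. The members and lists were chosen with earlier results of these data known. Named miRNAs are the members, up to 5 of each fixed list by mean level, the 3 most alike to each tested member, and names found by sequence.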

Additional observations from a re-analysis of the deposited data

How the results depend on the processing

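No member passed an FDR of 0.05 in any of 16 alternative settings. The count over all tested miRNAs went from 0 to 2 in edgeR with TMM or with DESeq2 size factors, and ran from 0 to 18 over the fits that leave out 1 library (18 without LO replicate 2). The log2 fold change of miR-424-5p ran from -0.62 to 0.089 with 1 library left out, above zero without LO replicate 2 (0.075) and without SO replicate 1 (0.089); those of miR-503 and miR-542-3p kept their sign, at -0.87 to -0.33 and 0.11 to 0.77. With 1 library left out, the LO minus SO difference in the ratio of miR-503 to miR-424-5p ran from -0.65 to 0.13 (the latter without SO replicate 3), that of miR-542-3p to miR-424-5p from 0.21 to 1.21 (without LO replicate 2 and LO replicate 1), and that of miR-542-3p to miR-503 from 0.65 to 1.35. The correlation of miR-424-5p with miR-503 ran from 0.0936 to 0.791 with 1 library left out. That of miR-503 with miR-542-3p, near 0 with all libraries, was 0.133 when scaled to listed miRNA reads, and ran from -0.366 to 0.480 with 1 library left out (0.480, 0.0115 and 0.295 without LO replicate 2, SO replicate 2 and SO replicate 3). That of miR-424-5p with miR-542-3p ran from -0.131 (without SO replicate 3) to 0.835. The summed level of the members, a log2 ratio of -0.23, ran from -0.55 to 0.02. The causes were not tested.

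Same-numbered libraries of LO and SO did not deviate together (correlations of -0.340, -0.222 and 0.0803 over the tested miRNAs), so the numbers were not taken as pairs. With the replicate number as a block, limma called 0 miRNAs, and miR-503, miR-424-5p and miR-542-3p stayed at -0.52, -0.25 and 0.40. For the ratio of miR-542-3p to miR-503 the block gave an exact sign-flip p of 0.25, the smallest it can give. Depth limits the LO values most, since LO replicates 1 and 2 hold 11 and 9 reads of the 4 members.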
